A study of Homo sapiens with 8 samples.

Results

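The centromeric region of human chromosome 15 was described from peaks of DNA pulled down by α-satellite RNA probes. Peaks were taken by position alone: every listed peak on chromosome 15 whose start lies from 16000000 to 18999999 on genome build hs1. This rule took 560 of the 32035 peaks listed for asynchronous cells and 499 of the 33553 peaks listed for mitotic cells. They make up 1.75% and 1.49% of the peaks, and 2.26% and 2.44% of the covered length, of the respective lists.

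The DNA came from ChIRP-seq, in which biotinylated antisense probes retrieve an RNA from sonicated chromatin together with the DNA attached to it, and that DNA is sequenced. The cells were wild-type RPE1, an immortalised epithelial line of the human retina, taken either as an asynchronous culture (labelled Async) or in mitosis (labelled Meta). The labels give 8 libraries, and in each condition the Odd and Even probe libraries were merged by the authors into 1 peak list. The Input and Scr libraries were not analysed here. With 1 list per condition there is no replicate error and no test between conditions, so every difference below is between 2 lists. The 95% intervals given cover counting error only and treat neighbouring peaks as independent. Read depth is unknown, and the lists hold no marker by which the cell type could be checked.

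α-Satellite is the tandem repeat of human centromeres. Its short monomers are grouped into higher-order repeats, blocks of several diverged monomers that recur head to tail with few differences, and on each chromosome 1 such array usually carries the centromeric nucleosomes that contain CENP-A. The array is transcribed at a low level, and its RNA has been found on centromeric chromatin. Older and more diverged α-satellite and other satellites often lie on both sides of the array. Chromosome 15 is acrocentric: its short arm is made largely of satellite DNA and ribosomal RNA genes, and in the window lower positions lie towards that arm. Whether the RNA stays on the same DNA through mitosis is the question that the comparison of the lists addresses. The probes are complementary to α-satellite DNA as well as to its RNA, and which of them held the recovered DNA was not tested.

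Peaks lay in the first 1.74 Mb of the window and followed the same outline in both lists. A sparsely covered stretch from 16000000 to 16554573 was followed by 109.779 kb with no listed peak (16554574 to 16664352), then by a densely covered block from 16664353 to 17738123, and then by no further peak to the end of the window. Of the 30 bins of 100 kb, 18 held a peak in each list and 12 held none. Listed peaks summed to 1073 kb in the asynchronous list against 1174 kb in the mitotic one, although the mitotic list had fewer peaks, a ratio of 0.891 (0.788 to 1.01). The order of the counts was reversed, with 353 asynchronous and 428 mitotic peaks, when a fold enrichment (the authors' ratio of pileup to local background) of 6 or more and a −log10 q of 5 or more were required. The empty 109.779 kb may not have been free of calls before the authors' filter. Peak names carry running numbers in genome order, and missing numbers were taken as calls removed before deposit. Of these, 4 lay between the peaks that flank the empty stretch in each list. Between the last peak of the window and the next listed peak, which lies beyond the window, 55 asynchronous and 56 mitotic numbers are missing. How many of those calls lay inside the window cannot be told, so its empty end may not have been free of calls either. The window starts inside a longer run of peaks, which begins at 15406353. The 500 kb before the window were covered over 8.50% in the asynchronous list against 9.29% in the mitotic one.

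**Figure D1:**
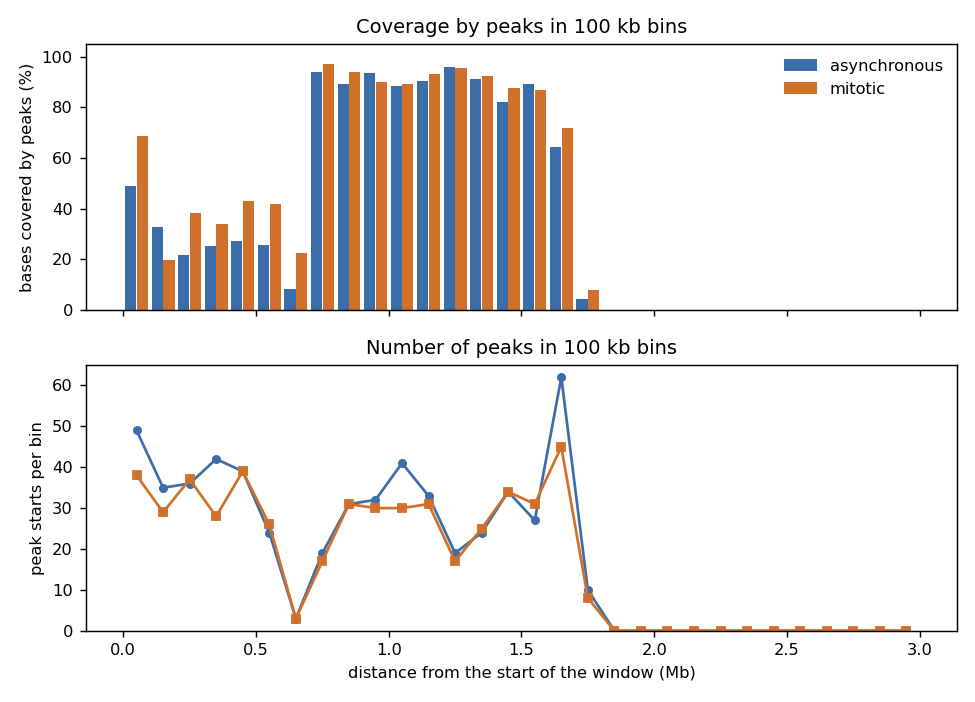
Bars in the upper panel give the percentage of bases covered by peaks in each 100 kb bin and points in the lower panel the number of peak starts, against distance in Mb from the start of the window, with asynchronous in blue and mitotic in orange. Coverage lies between 19.6% and 68.7% in the first 5 bins, above 80% in both lists in the 9 bins from 0.7 to 1.6 Mb, and at 0 from 1.8 Mb on, while the number of peaks per bin does not follow coverage.

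Coverage in the dense block was nearly complete over 900 kb in both lists. The 9 bins from 16700000 to 17599999 were each covered over at least 80% in both lists, a limit set after the values had been seen. In the asynchronous list coverage of these bins lay between 82.0% and 95.8% with a median of 90.5%. In the mitotic list it lay between 86.7% and 97.2% with a median of 92.4%. Over the 900 kb the lists covered 90.5% and 91.8%, a ratio of covered length of 1.01. The mitotic value was the higher in 6 of the 9 bins, and the difference ran from -3.61 to 5.76 percentage points. Since the bins were chosen for high coverage in both lists, covered length could differ little between them. Pearson's coefficient of bin coverage between the lists was 0.971 over the 18 bins with a peak and 0.664 over these 9.

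The best covered bins were nearly the same in both lists. In the asynchronous list the 3 highest were those that start at 17200000 (95.8%), 16700000 (94.1%) and 16900000 (93.7%). In the mitotic list they were those at 16700000 (97.2%), 17200000 (95.5%) and 16800000 (93.9%). The bins at 16700000 and 17200000 thus stood among the first 3 in both. Of the bins that held a peak, the 3 lowest were in the asynchronous list those at 17700000 (4.28%), 16600000 (8.29%) and 16200000 (21.6%). In the mitotic list they were those at 17700000 (8.06%), 16100000 (19.6%) and 16600000 (22.7%). The bins at 16600000 and 17700000 hold an edge of the dense block.

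Both edges of the dense block were covered less than the 900 kb between them. On the short-arm side, the last 4 bins of 10 kb before 16700000 were covered over 44.5%, 12.7%, 25.7% and 0% in the asynchronous list and over 46.4%, 42.1%, 38.2% and 100% in the mitotic list. From 16700000 on, the first 3 bins of 10 kb were covered over 90.2%, 92.0% and 95.9% in the asynchronous list and over 99.0%, 98.7% and 97.1% in the mitotic list. On the long-arm side coverage fell in 2 steps. In the 9 bins of 10 kb from 17600000 its median was 69.6% and 75.9%, with ranges of 52.1 to 77.5% and 48.1 to 98.2%. In the 5 bins after that the median was 13.3% and 12.6%, with ranges of 4.99 to 36.9% and 6.42 to 54.1%. The ranges of the 2 steps thus overlapped in the mitotic list. The last listed peak ended at 17738045 in the asynchronous list against 17738123 in the mitotic one.

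A local difference between the lists lay at the short-arm edge. The widest mitotic peak of the window, 23667 bp from 16686179 to 16709845, carried a fold enrichment of 12.2 and was wider than 99.8% of all mitotic peaks. The asynchronous list covered 37.5% of it, with 1 peak at its far end. There the asynchronous list left 18306 bp without a peak, from 16682673 to 16700978. Inside that stretch 2 running numbers are missing, which were taken as calls removed before deposit. In the 35.647 kb between the empty stretch and 16700000 the asynchronous list covered 23.2% and the mitotic list 63.6%. Each list had 3 peaks starting there.

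The stretch on the short-arm side of the gap was covered to a smaller extent and differed more between the lists. From 16000000 to 16554573 the asynchronous list covered 32.8% with 225 peaks and the mitotic list 44.3% with 197 peaks, a ratio of covered length of 1.35. Mitotic coverage was higher in the bins at 16000000 (49.0% asynchronous, 68.7% mitotic), 16200000 (21.6% and 38.3%), 16300000 (25.4% and 34.0%), 16400000 (27.5% and 43.1%) and 16500000 (25.7% and 41.8%). The bin at 16100000 went the other way, with 32.9% and 19.6%. Those 6 bins are also the ones whose mitotic covered length was at least 25% higher (5 bins) or at least 20% lower (1 bin), among 16 bins of the window with at least 10 kb covered in each list. Over 783 such bins of the whole genome, 9.20% were higher and 5.36% lower by these limits. In the well covered 900 kb no bin differed by that much when all listed peaks were counted. Those bins were chosen for high coverage in both lists, which by itself kept their differences within these limits. The absence of such bins there therefore cannot show that the lists were alike, and no contrast with the stretch before the gap is drawn from it. Neighbouring bins share peaks and sequence, so these counts are a description.

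The difference before the gap was larger when strong peaks alone were counted. Peaks within the same limits of fold enrichment and q covered 52.0 kb of it in the asynchronous list against 203 kb in the mitotic one, a ratio of 3.91. In the well covered 900 kb the same limits left 810 and 825 kb, a ratio of 1.02, and over both whole lists the ratio was 1.05. The near-equal covered length in the 900 kb did not hold for the strongest 25% of each list by fold enrichment. These covered 501 and 630 kb of the stretch, a ratio of 1.26. By bin that ratio ran from 1.05 to 3.15, and mitotic covered length was at least 25% higher in 5 of the 9 bins. Over both whole lists the ratio for the strongest 25% was 1.08. The share of such bins over the whole genome was not computed at this setting. Of the peaks before the gap, 50 of 225 asynchronous and 137 of 197 mitotic peaks reached a fold enrichment of at least 6, or 22.2% and 69.5%, where 73.7% and 77.6% of the whole lists do. The fold enrichment is scaled within each list by the peak caller, and whether a value of 6 means the same in both was not tested. The 42 smaller dense blocks of all chromosomes (at least 20 peaks over both lists, without the largest block of each) gave a background for this ratio. This strict ratio had a median of 1.83 and a range from 0.871 to 13.1, and over the 24 such blocks of the acrocentric chromosomes 13, 14, 15, 21 and 22 its median was 3.49. The block before the gap, which is among the 42 and was taken whole from 15406353, stood at 3.97, with 8 of all and 7 of the acrocentric blocks higher. Without the strict limits its ratio of covered length was 1.30, against medians of 1.26 and 1.30, with 14 and 11 blocks higher.

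**Figure D2:**
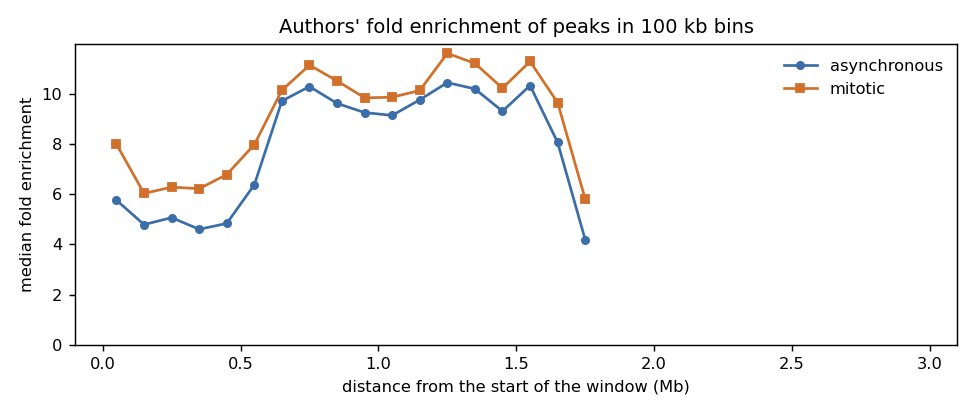
Points give the median of the authors' fold enrichment over the peaks that start in each 100 kb bin, against distance in Mb from the start of the window, with asynchronous in blue and mitotic in orange. In each list the 9 well covered bins lie at 9.14 or above, and the first 5 bins at 7.99 or below.

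Within each list, fold enrichment followed coverage along the array. In the asynchronous list its median per bin lay between 9.14 and 10.5 in the well covered bins and between 4.60 and 5.76 in the first 5 bins of the window. In the mitotic list the same ranges were 9.84 to 11.6 and 6.03 to 7.99. Across the 18 bins with a peak, Spearman's coefficient between coverage and median fold enrichment was 0.772 in the asynchronous list against 0.798 in the mitotic one. The number of peaks per bin had no such relation to coverage, with coefficients of -0.150 and 0.0424. Coverage and fold enrichment derive from the same peak calls, so they are not independent measures. These bins share 1 library pool and 1 reference sequence, and the coefficients are given as a description.

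Peaks in the well covered 900 kb were wide and separated by short gaps. The median width was 2268.5 bp in the asynchronous list (2097 to 2423) against 2395 bp in the mitotic one (2245 to 2469), over 260 and 246 peaks, so that these intervals overlap. The median gap between peaks was 156 and 159 bp, and 86.5% and 89.8% of the gaps were shorter than 500 bp. Gaps in the window were at least 101 bp in both lists. Peaks of at least 5 kb numbered 47 and 48 and held 47.0% and 48.0% of the length covered by the peaks that start there. The 3 widest asynchronous peaks of the window, of 16521, 15591 and 15269 bp, lay at 16769802, 17356454 and 17580877, and the mitotic list covered 99.2%, 98.9% and 97.4% of them. The next widest mitotic peaks, of 21270 and 20072 bp, lay at 17250601 and 17331800. The asynchronous list covered 94.8% and 98.9% of them, with 2 and 3 peaks.

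Before the gap peaks were narrower, and mitotic ones were the wider. Median width was 547 bp in the asynchronous list (518 to 642) against 871 bp in the mitotic one (724 to 1043), a ratio of 1.59. Peaks narrower than 500 bp made up 42.7% of the asynchronous and 25.9% of the mitotic peaks there, against 6.54% and 7.32% in the well covered stretch. The median gap was 644.5 and 492.5 bp. The median width per bin was higher in the mitotic list in 4 of the 5 full bins before the gap and in 8 of the 9 well covered bins. At the long-arm edge, from 17600000 on, peaks were again narrow, with medians of 633 bp (457 to 799) and 1019 bp (773 to 1292) over 72 and 53 peaks.

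**Figure D3:**
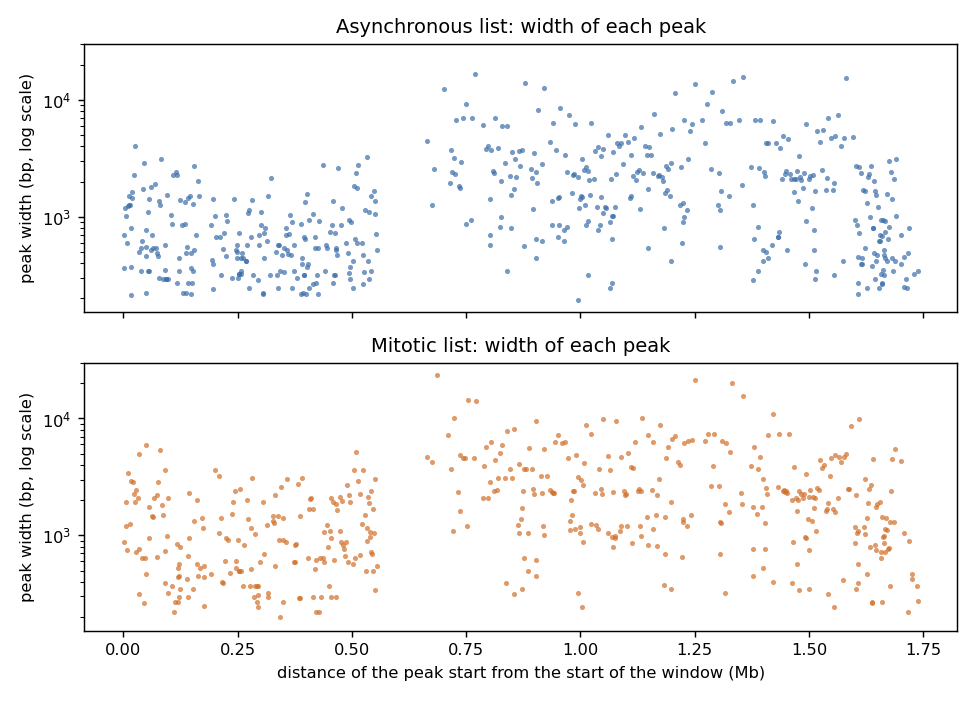
Each point is 1 peak, with its width in bp on a log scale against the distance in Mb of its start from the start of the window, for the asynchronous list above and the mitotic list below. Widths before the gap reach 3995 bp and 5895 bp, and widths after it reach 16521 bp and 23667 bp.

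Spacing in the well covered stretch favoured distances near 2.5 kb. Distances between successive starts had a median of 2550 bp in the asynchronous list against 2601 bp in the mitotic one. Overlapping classes of 200 bp were scanned from 800 bp up. The fullest ran from 2450 to 2650 bp, with 28 of 259 asynchronous distances and 31 of 245 mitotic ones. The classes just below and above it held 13 and 9 asynchronous and 9 and 7 mitotic distances. Widths, scanned in the same way, clustered a little lower. The fullest class ran from 2250 to 2450 bp in the asynchronous list, with 21 peaks, against 20 just below and 9 just above. It ran from 2300 to 2500 bp in the mitotic list, with 29 peaks, against 12 and 5. Counted over all pairs of starts up to 6 kb apart, the fullest window of 51 bp lay at 2550 bp with 16 pairs and at 2601 bp with 20 pairs, where windows of that size held 3.73 and 3.28 pairs on average.

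The short uncovered gaps recurred with the same step. Each base of the 900 kb was marked as covered or not, and the marks were compared with themselves after a shift. The autocorrelation of uncovered bases, which is 1 at no shift, had its highest local maximum beyond 1 kb at a shift of 2526 bp in the asynchronous list (0.110) and of 2574 bp in the mitotic list (0.128). The next highest lay at 5101 bp (0.0809) and 5099 bp (0.0951), close to a doubling of the first. Further maxima lay at 7676 and 12799 bp in the asynchronous list and at 7651 and 10226 bp in the mitotic list. Peak starts sit on a 25 bp grid, with 98.2% and 98.4% of them 0 to 5 bp past a multiple of 25, which limits the resolution of these steps.

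The step was not the leading one in every part of the stretch. When the stretch was divided into 3 parts of 300 kb, the asynchronous list led with 8300 bp (0.0712) in the first part and with 2550 bp in both others (0.0769 and 0.181). In that first part none of its 4 highest maxima, at 8300, 9602, 8974 and 3971 bp, lay near 2.5 kb. The mitotic list led with 1298 bp (0.156), 1324 bp (0.168) and 5147 bp (0.136), with the second place at 2572, 2548 and 2599 bp. The lists lie on 1 reference sequence, so the step in one is not independent of the step in the other, and a step that comes from the sequence or the placement of reads cannot be told apart from one in the recovered chromatin.

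Before the gap another shift had the highest local maximum. The leading shift was 3402 bp in the asynchronous list (0.106) against 3375 bp in the mitotic one (0.172). At these shifts the autocorrelation in the well covered stretch was -3.8e-05 and 0.0027. In the other direction, the shift that led in the well covered stretch gave 0.0420 before the gap in the asynchronous list (2526 bp). In the mitotic list (2574 bp) the value was 0.200, above that of its leading maximum there, although no local maximum among its 4 highest lay at that shift. In the asynchronous list maxima near a doubling and a tripling followed, at 6849 bp (0.0749) and 10251 bp (0.0716), but both were lower than a maximum at 7774 bp (0.0857), which is not a whole multiple of the first. In the mitotic list the next maxima, at 5024 bp (0.127) and 10475 bp (0.114), were not whole multiples of the first, and its maximum rose little above the level before it, whose lowest value was 0.158.

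**Figure D4:**
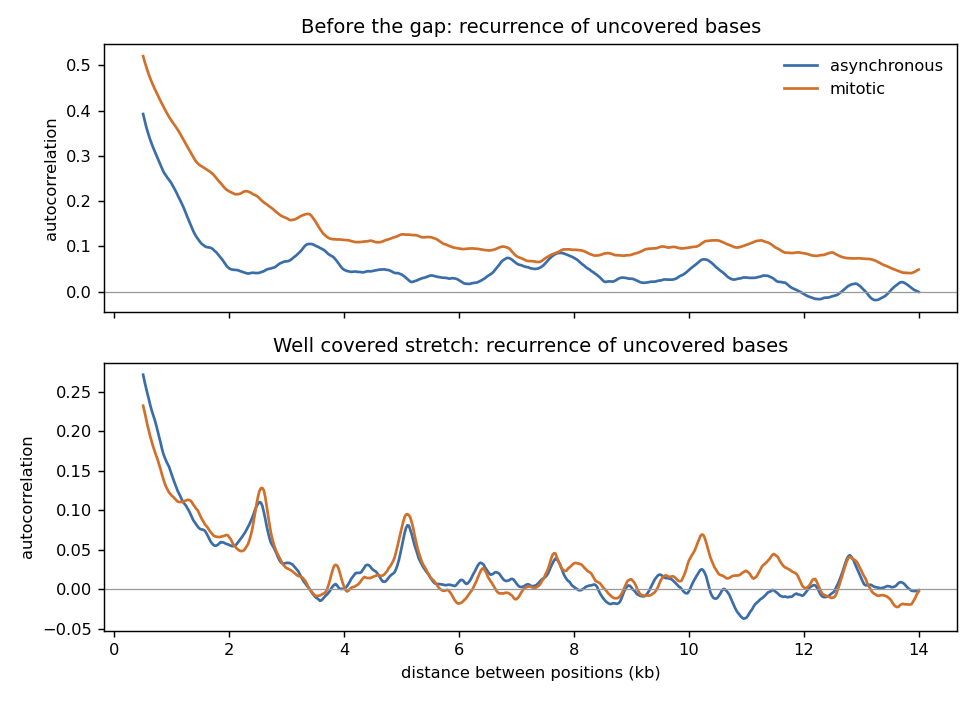
Lines give the autocorrelation of uncovered bases against the distance between positions in kb, for the stretch before the gap above and the well covered 900 kb below, with asynchronous in blue and mitotic in orange. In the lower panel both lists have local maxima near 2526 to 2574 bp and near 5100 bp, and in the upper panel near 3375 to 3402 bp.

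Peaks of the lists overlapped more often in the well covered stretch than before the gap, but at such coverage nearly any peak meets another, so the shares do not measure shared placement. Of the peaks in the 900 kb, 255 of 260 asynchronous (98.1%, 95.6 to 99.4%) and 238 of 246 mitotic (96.7%, 93.7 to 98.6%) met a peak of the other list by at least 1 bp. Before the gap 134 of 225 (59.6%, 52.8 to 66.0%) and 112 of 197 (56.9%, 49.6 to 63.9%) did. Over the whole lists 81.9% of asynchronous and 79.2% of mitotic peaks met one. The Jaccard index, shared over combined covered bases, was 88.6% in the 900 kb and 29.7% before the gap, and it too rises with coverage by itself. It ranged from 82.4% to 94.2% over the 9 well covered bins and from 12.9% to 41.8% over the 5 full bins before the gap. The lowest value belonged to the bin at 16300000.

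Even where coverage matched, the lists divided it into different peaks. Peaks of both lists that touch formed 155 groups in the well covered stretch. Of these, 60 held 1 peak of each list, 21 held several asynchronous peaks under 1 mitotic peak, 21 the reverse, and 40 several of each. In the 60 matched pairs the starts lay a median of 51.5 bp apart, with 48.3% within 50 bp. The mitotic peak was the wider in 30 of the 60. Before the gap 53 pairs matched singly, with a median offset of 148 bp, 22.6% within 50 bp and the mitotic peak wider in 40. There 91 groups held asynchronous and 85 mitotic peaks alone.

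The gaps themselves were shared only in part. In the well covered 900 kb the asynchronous list left 85372 bp without a peak and the mitotic list 73957 bp, and 30276 bp were uncovered in both, 35.5% and 40.9% of each. Stretches of at least 1500 bp without a peak numbered 10 in the asynchronous list, from 1606 to 3832 bp, and 6 in the mitotic list, from 1732 to 4084 bp. The other list covered more than 50% of 8 of the 10 and of 5 of the 6. Such stretches of the lists overlapped in a single place, where the mitotic one from 17417824 to 17420276 met the asynchronous ones from 17415523 to 17418329 and from 17418899 to 17420800. In all 16 of these stretches at least 1 running number is missing, which was taken as a call removed before deposit.

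Read from the running numbers, the filter left more of the calls in the well covered stretch than elsewhere in the window. Listed peaks made up 86.7% of the running numbers between its first and last peak in the asynchronous list against 89.1% in the mitotic one. Before the gap the shares were 39.0% and 44.9%, and at the long-arm edge 55.4% and 55.2%. How that filter worked is not stated in these sources, and its part in the coverage before the gap was not tested.

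Among the largest blocks of the 23 chromosomes, joined at gaps of at most 100 kb, the dense block of chromosome 15 was short and well covered. It spanned 1073.77 kb, and 2 blocks were shorter. Its coverage of 83.0% and 86.5% ranked 5 and 4 from the highest, where the medians over chromosomes were 70.7% and 72.9%. The blocks of the other acrocentric chromosomes were covered over 73.7% and 75.5% on chromosome 13, 77.9% and 79.2% on 14, 94.7% and 95.7% on 21, and 70.7% and 72.9% on 22. The chromosome 15 block had median widths of 1948 bp asynchronous (1597 to 2173) and 2245 bp mitotic (1941 to 2396). These intervals overlap. Their ratio of 1.15 was the highest of the 23, followed by 1.12 on chromosome 9 and 1.11 on chromosome 12. Values ran from 1.02 to 1.08 on the other 4 acrocentrics, and the well covered 900 kb alone gave 1.06. The ratio of mitotic to asynchronous peaks in the chromosome 15 block was 0.901 (0.769 to 1.06), rank 22 from the highest. With 1 list per condition these ranks carry no test.

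**Figure D5:**
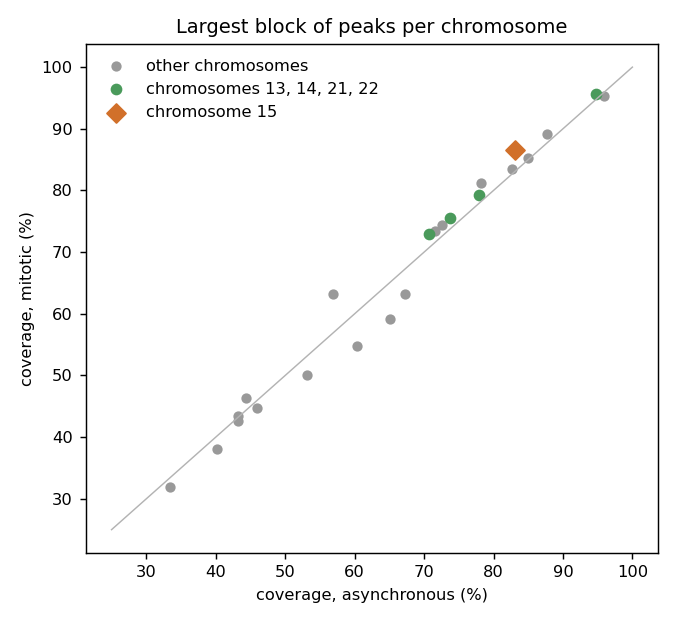
Each point is the largest block of peaks of 1 chromosome, with its coverage in percent in the asynchronous list on the horizontal and in the mitotic list on the vertical axis, and the line marks equal coverage. The chromosome 15 block, an orange diamond at 83.0% and 86.5%, lies above the line, as do the 4 other acrocentrics in green and several other chromosomes in grey.

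The leading step of the uncovered bases was not the same in all acrocentric blocks, and a leading step need not be the shortest one. Over the whole dense block of chromosome 15 it was 2528 bp in the asynchronous list against 2550 bp in the mitotic one, with autocorrelations of 0.342 and 0.319. It was 2725 bp in both lists on chromosome 14, close to the 2700 and 2701 bp on 22, and 1177 and 1198 bp on 13. The second highest maxima on chromosome 13 lay at 3075 bp in the asynchronous list and 2375 bp in the mitotic one. On chromosome 21, with 22 and 21 peaks in its block, the lists led with unlike steps of 6000 and 2426 bp. The values on chromosome 15 are higher over the whole block than over the 900 kb, and the whole block includes both edges, which are covered less.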

How the data were processed

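The authors' files are 2 peak lists without a header, made with fastp, Bowtie2 and MACS2 on build hs1, per the submitters' processing notes, which give no versions. The settings, the control library, how reads from repeated copies were placed, and the later filter on peaks are not stated in these sources. Columns were identified by their values and by how MACS2 orders its broad peak output. The deposited pileup signal and −log10 p were not used. The deposited −log10 q and fold enrichment, a ratio to local background, served to filter and describe peaks within each list. A deposited score per peak and 2 further unnamed columns were not used. Starts count from 1.

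Peaks were taken by their start, and coverage per bin or stretch by overlapping bases. Overlap needed 1 bp. Intervals are Clopper-Pearson for shares, exact conditional binomial for ratios of counts and order statistics for medians, at 95%. A recurrence step was the highest local maximum, within 400 bp on both sides, of the autocorrelation of uncovered bases from 1000 bp to 20 kb. Tested on simulated data with a planted step, it returned in most runs a whole multiple of that step and not the step itself, so the leading step need not be the shortest one. The peaks and the comparisons were chosen with earlier results of these data known, and the division into stretches was set after the values had been seen. The naming rule took the 3 highest and lowest bins, bins at least 25% higher or 20% lower in the mitotic list and the 3 widest peaks per list; other stretches were picked after their values were seen. No gene is named, since the gene table given is of another build, and no sequence is printed. Scripts ran in Python 3.11.15 with pandas 2.3.3, numpy 2.4.6, matplotlib 3.10.9 and scipy 1.17.1.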

Additional observations from a re-analysis of the deposited data

How the results depend on the processing

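No paired analysis was possible because each condition has 1 merged list, and for the same reason no setting leaves out a library. Read depth is unknown. Alternatives for the stretches and the recurrence step, but not the others, were chosen after seeing the data. Values are given as asynchronous and mitotic.

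With the strict limits, a fold enrichment of 6 or more and a −log10 q of 5 or more, the window held 353 asynchronous peaks against 428 mitotic ones, so the mitotic list then had the more, and covered lengths were 930 and 1127 kb. Median widths became 1817 and 1907 bp, start distances 2636.5 and 2577 bp, the asynchronous median gap 228 bp, the shares met 94.9% and 72.9% and the Jaccard index 73.0%. With the strongest 25% of each list, counts were 145 and 184, covered lengths 528 and 698 kb, median widths 2419 and 2443.5 bp, start distances 5189.5 and 4426 bp, gaps 1492.5 and 404 bp, shares met 87.6% and 70.1% and the Jaccard index 62.2%. Joining peaks at gaps up to 200 bp left 341 and 286 peaks, covered lengths of 1102.5 and 1203 kb, start distances of 2824 and 3377 bp, gaps of 627 and 503 bp and a mitotic median width of 1944.5 bp. The dense block alone held 335 and 302 peaks. A reciprocal overlap of 50% lowered the shares met to 37.3% and 41.9%.

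Bins with at least 25% more mitotic covered length numbered 5 of 16. They were 2 of 9 with bins of 200 kb, 2 of 12 with the strict limits and 3 of 16 at a limit of 1.5 times, but 6 of 10 with the strongest 25%, of which 5 lie in the well covered 900 kb and 1 at 17600000. With bins of 50 kb they were 7 of 32 and with shifted bins 4 of 16. The strict limits left the bins from 16100000 to 16400000 below the 10 kb required in each list, so these were not counted. With the strongest 25% no bin before the gap was counted. Shares over the whole genome were not computed at these settings. Bins with at least 20% less, 1 of 16, became 2 with bins of 50 kb and 0 with bins of 200 kb, with bins shifted by 50 kb, with the strict limits and with the strongest 25%. The strict limits and the strongest 25% left the bin at 16100000, the 1 bin called, below the 10 kb limit. The counts of 0 at these settings therefore do not bear on it. Pearson's r of bin coverage between lists, 0.971 over 18 bins, became 0.939, 0.993 and 0.973 with bins of 50 kb, 200 kb and shifted bins. These values span sparse and dense stretches together. Within the 9 well covered bins r was 0.664, and within the 6 bins that hold the stretch before the gap it was 0.647 (Spearman's coefficient 0.371). The leading distance of 2550 and 2600 bp over the window became 5099 bp from asynchronous ends and 5024 bp from mitotic midpoints.

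The ratio of covered length before the gap, 1.35, became 3.91 with the strict limits and 12.9 with the strongest 25%, which leave 1 asynchronous and 6 mitotic peaks there, and 1.30 over the whole block from 15406353. In the well covered stretch the ratio, 1.01, became 1.02 and 1.26 with these limits. The cause was not tested. At a limit of 90% the well covered bins had a mean coverage of 93.0% and 93.7%. The leading step before the gap moved to 5349 bp in the asynchronous list with the strict limits, and to 3471 and 5000 bp with joined peaks, while in the well covered stretch it stayed from 2500 to 2574 bp.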
